A study of Mus musculus with 24 samples.

Results

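The genes described here were 10 transcription factors and cofactors that mark or maintain endothelial identity: *Gata4*, *Gata2*, *Gata6*, *Maf*, *Meis2*, *Epas1*, *Erg*, *Fli1*, *Tal1* and *Lmo2*. They were taken by symbol from the 48820 entries of each of 4 count tables, and all 10 were found once in every table and passed the filter on low counts in all 4 comparisons. RNA was sequenced from 24 mouse libraries, 3 in each of 8 groups, all on a C57BL/6 background. Hepatic ECs were sorted as CD45-CD31+ cells and liver macrophages as CD45+Ly6C-F4/80+CD64+ cells at 8 to 10 weeks of age, and whole livers were taken at 12 weeks. In *Gdf2/Bmp10* HSC-KO mice, *Lrat*-Cre deleted floxed *Gdf2* and *Bmp10*, the genes of the ligands BMP9 and BMP10, in hepatic stellate cells (HSCs), and the controls carried both floxed genes without Cre. These mice gave ECs, macrophages and whole liver. In the fourth comparison, macrophages of Smad4 cKO mice, in which *Vav1*-Cre deletes floxed *Smad4* in blood-forming cells and their progeny, were set against macrophages of Smad4FF mice, which carry the floxed gene only. Both Cre drivers act by cell lineage and not at a chosen time. The labels place an EC library and a macrophage library with the same animal for 3 mice.

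BMP9 and BMP10 are blood-borne ligands that bind the receptor ALK1 on ECs and act through SMAD proteins, of which SMAD4 is the shared partner. Sinusoidal ECs of the liver are fenestrated, lack a continuous basement membrane and take up material by scavenger receptors. GATA4 and c-MAF (*Maf*) are known as factors that set the sinusoidal state, whereas ERG, FLI1, GATA2, TAL1 and LMO2 act in ECs of many organs. HIF-2 alpha (*Epas1*) is an oxygen-sensitive factor that is abundant in endothelium, and MEIS2 is a homeobox protein of the TALE class. Several of these genes are also used outside the endothelium: *Maf*, *Fli1* and *Lmo2* in macrophages, *Gata4* and *Gata6* in other liver cells, and *Tal1* and *Lmo2* in blood progenitors.

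The libraries held 60911527 to 110879155 counts. *Gdf2*, the gene of BMP9, had 2036, 720 and 2030 counts in control livers and 287, 178 and 189 in HSC-KO livers, and *Bmp10* had 362, 209 and 180 against 7, 22 and 8. *Smad4* had 3894, 3185 and 4416 counts in macrophages of Smad4FF mice and 1669, 1461 and 1289 in those of Smad4 cKO mice. The pan-endothelial markers were present in all EC libraries: 12 genes such as *Pecam1* and *Cdh5* summed to 18110 to 19080 CPM in control ECs and 13570 to 15070 CPM in HSC-KO ECs. CPM are counts scaled to library size with TMM factors within each table. Markers of sinusoidal ECs (10 genes) summed to 166800 to 259800 CPM in control ECs. In HSC-KO ECs they summed to 56320, 4843 and 2977 CPM, so that the HSC-KO replicate 1 library stood apart from the other 2. Markers of continuous ECs (8 genes) ran the other way, from 469 to 615 CPM in controls to 8467 to 10390 CPM in HSC-KO. In the EC libraries, 8 Kupffer cell and macrophage markers also summed to less in HSC-KO (0.819 to 2.35 CPM, with *Clec4f*, *Vsig4*, *Marco* and *Timd4* at 0) than in controls (34.1 to 41.7 CPM), and 10 HSC markers summed to 123 to 159 CPM in HSC-KO and 159.8 to 247 CPM in controls.

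In control ECs the 10 genes differed widely in level. On the scale of CPM per kb of exon, which allows genes to be compared, *Maf* was highest at 207 ± 14.97 (SD, n = 3), followed by *Epas1* at 164 ± 12.8 and *Gata4* at 87.2 ± 1.45. *Erg* (41.9 ± 14.98), *Fli1* (40.7 ± 6.63) and *Lmo2* (35.3 ± 5.003) overlapped between libraries. *Meis2* (24.5 ± 4.51), *Tal1* (13.7 ± 2.04) and *Gata2* (7.89 ± 0.552) followed with no overlap between neighbours, and *Gata6* was close to absent at 0.0879 ± 0.0510. In HSC-KO ECs the order was *Epas1* (171 ± 22.6), *Fli1* (85.7 ± 18.3), *Maf* (53.1 ± 34.8), *Erg* (50.6 ± 4.03), *Lmo2* (38.3 ± 5.11), *Meis2* (26.5 ± 7.04), *Tal1* (8.58 ± 4.45), *Gata2* (8.34 ± 0.548), *Gata4* (2.87 ± 3.12) and *Gata6* (0.0605 ± 0.0184). *Gata4* thus dropped below every factor but *Gata6*, and *Fli1* moved up to stand next to *Epas1*, with *Fli1* and *Maf* overlapping between HSC-KO libraries.

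Against the other compartments of control mice, 8 of the 10 genes were higher in ECs than in macrophages at an adjusted p below 0.05, where 24.5% of all genes tested were called higher in ECs and 24.7% lower. The log2 differences between control ECs and control macrophages were 6.24 for *Tal1*, 6.21 for *Gata4*, 5.98 for *Meis2*, 5.81 for *Gata2*, 5.33 for *Epas1* and 4.13 for *Erg*. Without control macrophage replicate 2 they were 6.89 for *Tal1*, 7.22 for *Gata4*, 7.05 for *Gata2* and 6.02 for *Epas1*, and that of *Erg* was 3.76 to 4.67 when a library was left out, with all 6 genes called in all 12 alternatives. They were 1.11 for *Maf* and 0.48 for *Lmo2*, which was called in 7 of 12 alternatives (adjusted p 0.0165 to 0.17) and lost its call without control EC replicate 1 (0.38), without control macrophage replicate 1 or 3 (0.47 in both), with the replicate block and with all 24 libraries. *Fli1*, an ETS factor of both endothelium and blood cells, was at 0.02 (SE 0.16, adjusted p = 0.91), and *Gata6* at 1.45 (SE 0.65, adjusted p = 0.11). Against control whole liver, 9 genes were higher in ECs, by 1.67 (*Epas1*) to 5.04 (*Meis2*) on the log2 scale, where 33.0% of all genes were called higher. *Gata6* was lower in ECs than in whole liver (log2 difference -4.07, SE 0.46, adjusted p = 1.03e-04). Unless DESeq2 is named, adjusted p values are from edgeR's quasi-likelihood test with Benjamini-Hochberg adjustment over all genes of a comparison. Ranges over the alternatives include DESeq2, and cell type and table coincide in these 2 comparisons.

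Promoter sequence is shown for the genes that had an entry in the RefSeq table (GRCm38.p6) and held a searched motif within 250 bases before an annotated start, since most of these factors bind DNA at motifs of the kinds searched. Of the 10 genes, *Meis2*, *Tal1*, *Gata2* and *Erg* had entries. The motifs were GATAA (GATA factors), CANNTG (the E-box bound by TAL1 and its E-protein partners), CGGAAG (ETS factors), GGCGCC (the element bound by SMADs downstream of BMP receptors) and ACGTG (hypoxia-inducible factors), each searched on both strands. Capitals mark the matches, and the sequences read 5′ to 3′ in the direction of the gene.
*Tal1*, start 1, chr4:115056176-115056425, plus strand: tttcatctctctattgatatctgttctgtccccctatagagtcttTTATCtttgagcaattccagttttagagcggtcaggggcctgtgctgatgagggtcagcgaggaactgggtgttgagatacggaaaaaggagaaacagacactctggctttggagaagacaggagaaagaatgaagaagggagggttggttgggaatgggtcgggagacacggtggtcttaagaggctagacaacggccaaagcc
*Gata2*, start 2, chr6:88198414-88198663, plus strand: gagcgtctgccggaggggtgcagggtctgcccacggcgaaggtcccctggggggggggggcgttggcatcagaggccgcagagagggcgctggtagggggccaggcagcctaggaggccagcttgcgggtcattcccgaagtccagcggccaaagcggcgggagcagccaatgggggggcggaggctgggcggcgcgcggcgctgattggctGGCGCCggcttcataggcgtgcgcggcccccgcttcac
*Erg*, start 3, chr16:95459349-95459598, minus strand: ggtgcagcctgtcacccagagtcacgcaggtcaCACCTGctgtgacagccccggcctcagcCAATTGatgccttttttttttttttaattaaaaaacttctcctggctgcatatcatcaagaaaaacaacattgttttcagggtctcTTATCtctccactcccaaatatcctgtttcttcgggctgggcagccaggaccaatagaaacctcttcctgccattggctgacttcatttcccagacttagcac
The *Tal1* window shown held 1 GATAA match, the *Gata2* window shown 1 GGCGCC match, and the *Erg* window shown 1 GATAA match and 2 E-boxes. The other windows of these genes, *Tal1* start 2, *Gata2* start 1 and *Erg* starts 1 and 2, held no match of any motif. Nor did the window of *Meis2*. The share of all 32851 promoter windows of the same length with a match was 22.6% for GATAA, 66.2% for CANNTG, 13.6% for CGGAAG, 9.6% for GGCGCC and 16.6% for ACGTG. The E-boxes and the other motifs searched do not share letters in these windows, and a match is a description of the sequence only.

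The comparison of ECs from HSC-KO mice with control ECs asked how loss of the HSC-derived ligands changed these factors. The sinusoidal factors *Gata4* and *Maf* fell, *Fli1* rose, and the other 7 genes did not pass the test. These 3 of 10 genes stand against 20.1% of the 16053 genes tested that were called in ECs (10.3% higher and 9.77% lower), and all 3 were DEGs, with an absolute log2 fold change above 1, as were 13.7% of all genes. The median log2 fold change of the 10 genes was 0.07, and that of all genes was 0.00475. The groups did not overlap for 4 of the 10 genes, against 40.4% of all genes. In bulk libraries, fewer cells of a type and less RNA of a gene per cell cannot be told apart, and here the fall of the sinusoidal markers and the rise of the continuous markers moved with these changes.

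**Figure D1:**
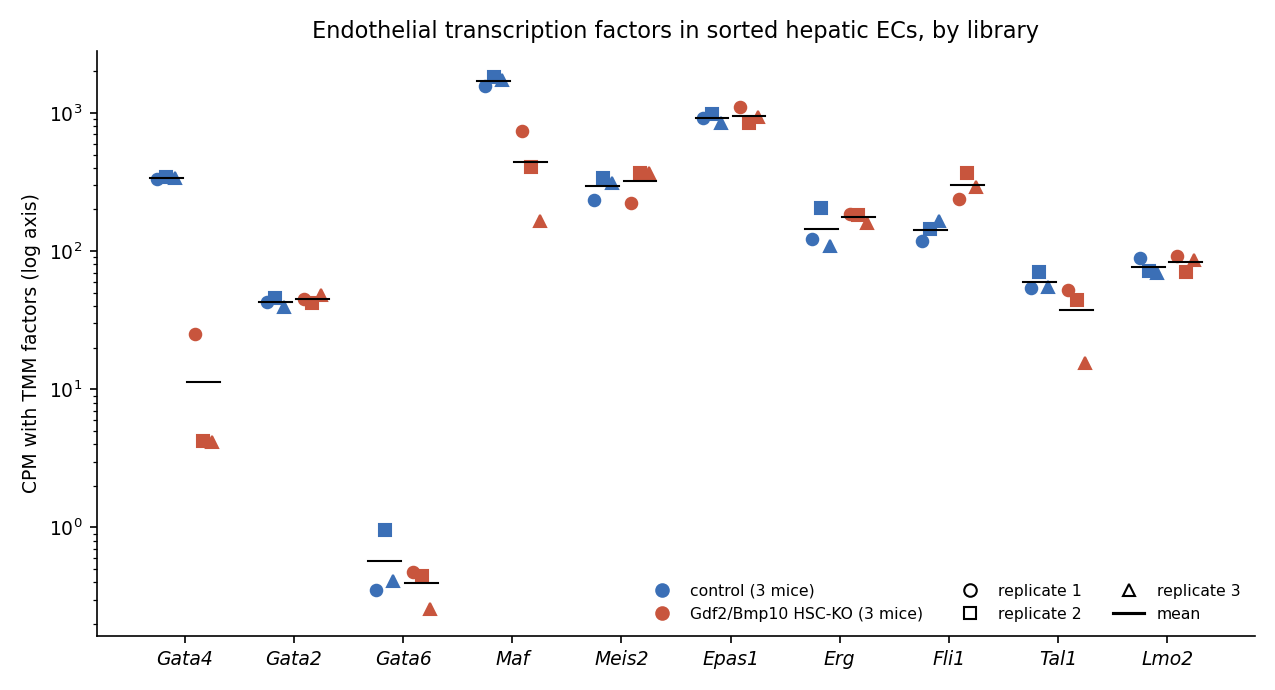
CPM of each gene in the 6 EC libraries on a log axis, with control mice in blue, HSC-KO mice in red, the replicate given by the shape of the point and the mean of 3 by a line. *Gata4* and *Maf* lie below the controls in all 3 HSC-KO libraries, with replicate 1 nearest to the controls, and *Fli1* lies above them.

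*Gata4* (chr14:63198922-63271692, minus strand, GRCm38), the zinc-finger factor of the sinusoidal endothelium, had 335, 346 and 341 CPM in control ECs, from 21391 to 27413 counts. In HSC-KO ECs it had 25.3, 4.22 and 4.16 CPM, from 2381, 302 and 340 counts. Every HSC-KO library was thus far below every control, and replicates 2 and 3 were at 1.24% and 1.22% of the control mean against 7.42% for replicate 1. Its log2 fold change was -4.92 (SE 0.77, adjusted p = 0.00429), and the mean fell from 340.4 ± 5.67 to 11.2 ± 12.2 CPM (SD, n = 3), a level 30.4-fold higher in controls. Without HSC-KO replicate 1 it was -6.35 (SE 0.18, adjusted p = 1.23e-05), and over all 13 alternatives it ranged from -6.35 to -4.53 with adjusted p of 6.54e-07 to 0.0158.

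*Maf* (chr8:115682942-115707794, minus strand), which encodes the basic leucine zipper factor c-MAF, had 1570.1, 1809 and 1744 CPM in control ECs. It had 738, 408 and 166 CPM in HSC-KO ECs, which is 43.2%, 23.9% and 9.74% of the control mean. The groups did not overlap, but the HSC-KO libraries spread over a wide range. Between the groups, the log2 fold change was -1.96 (SE 0.48, adjusted p = 0.0244), and it was -2.57 without HSC-KO replicate 1 (adjusted p = 0.00423). The direction held in all 13 alternatives (-2.57 to -1.57), and the adjusted p was below 0.05 in 8 of them (range 1.29e-05 to 0.0891). It was 0.0891 without HSC-KO replicate 2, 0.0583, 0.0632 and 0.0653 without control replicate 1, 2 or 3, and 0.0516 with *Xist* as a covariate. The antisense gene *Gm15655* shares 440 exon bases with *Maf* and had 0 to 48 counts in the EC libraries.

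*Fli1* (chr9:32422204-32542861, minus strand), an ETS factor that acts with ERG in ECs, was the gene of the 10 that rose. It had 118, 144 and 164 CPM in control ECs and 239.7, 366 and 289.9 CPM in HSC-KO ECs. The lowest HSC-KO library was above the highest control. This gave a log2 fold change of 1.07 (SE 0.20, adjusted p = 0.00883), 2.10-fold in mean CPM, which was called in all 13 alternatives (0.90 to 1.38). Without HSC-KO replicate 1 it was 1.21 (adjusted p = 0.00477).

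*Erg* (chr16:95359169-95586593, minus strand), the ETS factor most closely related to *Fli1*, had 123, 205 and 108 CPM in control ECs and 184, 182 and 159 CPM in HSC-KO ECs. The groups overlapped through control replicate 2. With a log2 fold change of 0.27 it was not called (SE 0.24, adjusted p = 0.50), and without control replicate 2 the value was 0.60 with an adjusted p of 0.0452 (range over the alternatives 0.0452 to 0.84).

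*Tal1* (chr4:115056426-115071755, plus strand), a helix-loop-helix factor of early endothelial and blood development, had 54.5, 70.2 and 54.9 CPM in control ECs. It had 52.7, 44.5 and 15.5 CPM in HSC-KO ECs, all below the lowest control, with replicate 3 far below the other 2. The log2 fold change of -0.67 did not pass the test (SE 0.40, adjusted p = 0.29), nor in any alternative (-0.997 to -0.30). *Lmo2* (chr2:103957986-103981878, plus strand), the LIM adaptor that bridges TAL1 and GATA factors, had 89.0, 71.4 and 69.2 CPM in control ECs. It had 91.6, 70.5 and 86.9 CPM in HSC-KO ECs (log2 fold change 0.12, SE 0.16, adjusted p = 0.66), and the groups overlapped.

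*Gata2* (chr6:88193891-88207032, plus strand), the GATA factor common to ECs of many organs, had 42.6, 45.6 and 39.7 CPM in control ECs and 44.7, 42.2 and 48.1 CPM in HSC-KO ECs. Its groups overlapped within a narrow range (log2 fold change 0.08, SE 0.13, adjusted p = 0.72). The difference between the HSC-KO changes of *Gata4* and *Gata2* was not itself tested. *Gata6*, another GATA factor, had 29 to 59 counts in control and 21 to 45 in HSC-KO libraries, too few to show a change of moderate size (log2 fold change -0.53, SE 0.61).

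*Epas1* (chr17:86753700-86833410, plus strand) had 925.7, 985.4 and 843 CPM in control ECs and 1095, 848 and 928 CPM in HSC-KO ECs. The groups overlapped, and the log2 fold change was 0.06 (SE 0.17, adjusted p = 0.85). *Meis2* (chr2:115863064-116065839, minus strand) had 235, 339.5 and 312 CPM against 221, 367 and 369.6 CPM (log2 fold change 0.11, SE 0.24, adjusted p = 0.80). With library size alone in place of TMM factors, the log2 fold changes of the 10 genes in ECs were higher by 0.29 (median), with no change of sign and the same 3 genes called.

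**Figure D2:**
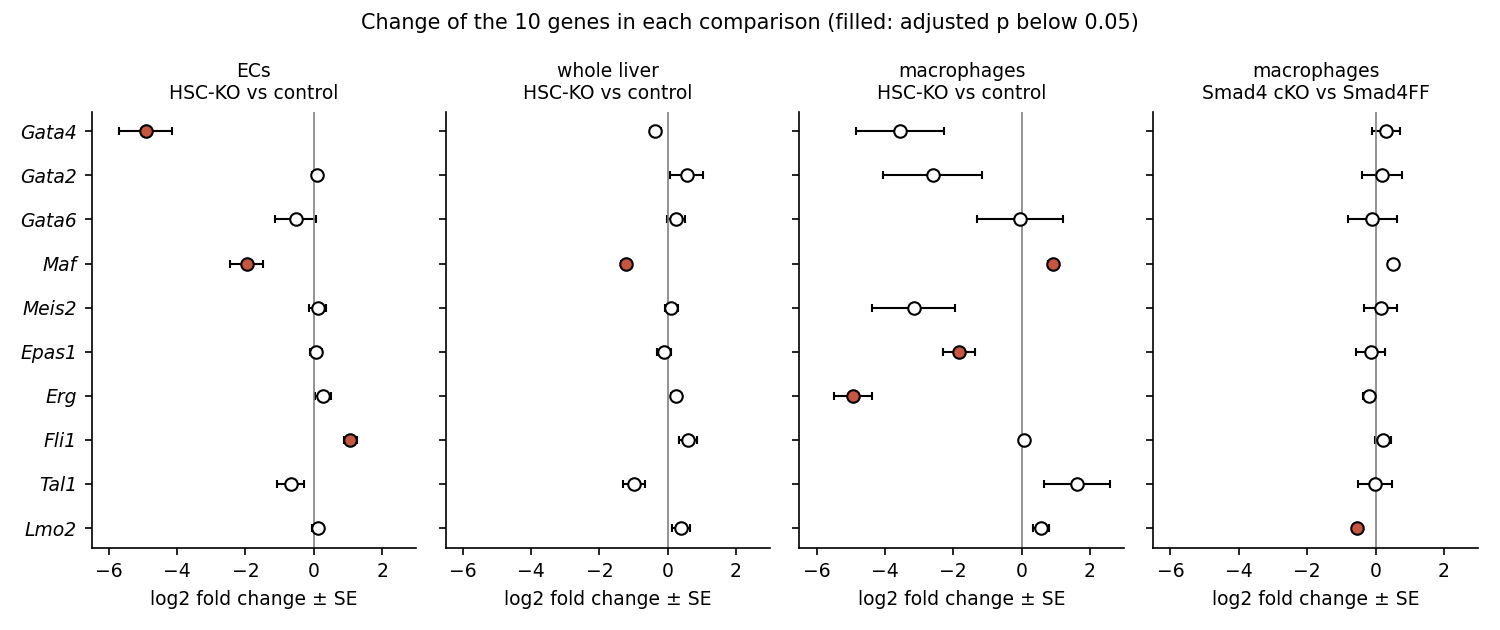
Log2 fold change with its standard error for each gene in the 4 comparisons, from edgeR's quasi-likelihood fits over all genes with 3 libraries a group. Filled points passed an adjusted p of 0.05: 3 genes in ECs, 1 in whole liver, 3 in macrophages of HSC-KO mice and 1 in macrophages of Smad4 cKO mice.

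Related factors were taken from a list of 55 genes, of which 43 were tested in ECs. In ECs 9 of the 43 were called, 5 higher and 4 lower, which is near the 20.1% of all genes, with a median log2 fold change of -0.00299. Described here are 4 of the 6 DEGs among them, and the groups of these 4 did not overlap. *Tcf4*, an E-protein that pairs with TAL1, had 269, 368 and 334 CPM in control ECs and 657, 921 and 826 CPM in HSC-KO ECs (log2 fold change 1.31, SE 0.20, adjusted p = 0.00349). The homeobox gene *Meis1*, a close relative of *Meis2*, had 31.8, 53.3 and 55.2 CPM in control ECs and 21.8, 12.6 and 15.5 CPM in HSC-KO ECs (log2 fold change -1.49, adjusted p = 0.00892), every HSC-KO library being below every control. The ETS gene *Elf4* rose from 8.77 ± 3.47 to 22.0 ± 0.53 CPM (log2 fold change 1.33, adjusted p = 0.0114). *Lmo1*, a relative of *Lmo2*, was at 0 counts in all 3 control ECs and had 22, 26 and 34 counts after HSC-KO. Against a floor of 3 counts in each control library it was at least 8.04-fold higher, at a mean of 0.337 CPM. *Lmo1* passed the filter on low counts through the HSC-KO libraries alone, so its call and lack of overlap rest on that group. Called without passing the fold threshold were *Zfpm1* (log2 fold change -0.98), which encodes the GATA cofactor FOG1, *Elf1* (-0.63) and *Mafg* (-0.61). None of the 7 tested genes of the HIF pathway was called.

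**Figure D3:**
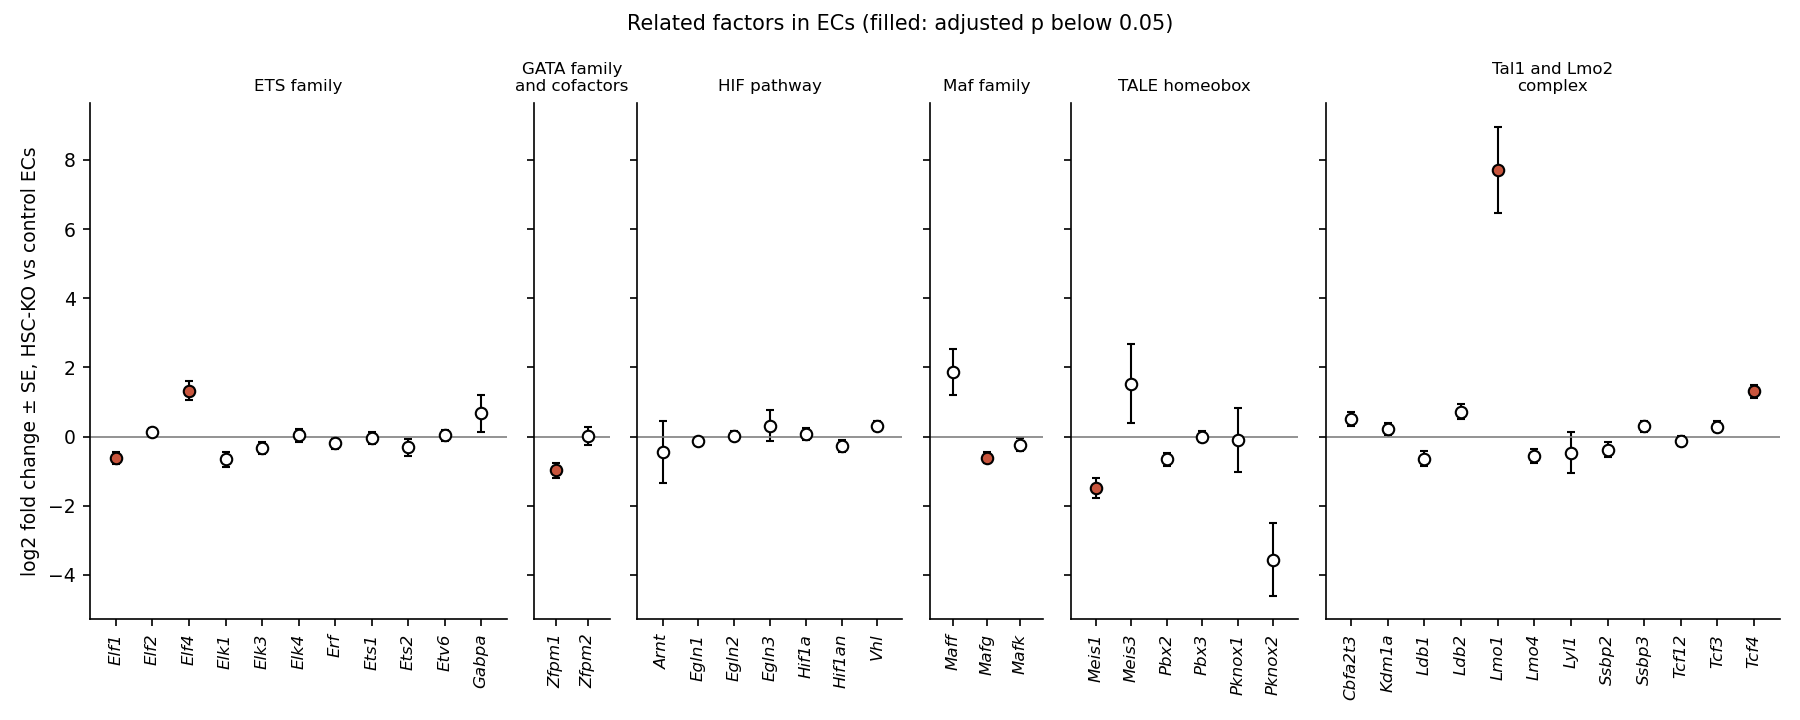
Log2 fold change with its standard error of 41 related factors tested in ECs, grouped by family, with filled points at an adjusted p below 0.05. The filled points above 0 are *Elf4*, *Lmo1* and *Tcf4*, and the fitted value of *Lmo1* depends on the prior count because its control libraries were at 0.

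In whole liver, *Maf* fell and no other gene of the 10 passed the test, where 2.83% of 17118 genes were called and 1.59% were called lower. *Maf* had 41.9, 51.7 and 55.1 CPM in control livers and 18.6, 23.5 and 21.4 CPM in HSC-KO livers, with no overlap (log2 fold change -1.23, SE 0.15, adjusted p = 0.00672). It was called in all 13 alternatives (-1.33 to -1.13). In the same livers the sum of the pan-endothelial markers was 458 to 562 CPM in controls and 448 to 525 CPM in HSC-KO. Of these 12 genes 6 were called, 3 higher and 3 lower, so the sum hides changes in both directions. The sinusoidal markers summed to 523 to 701 and 78.6 to 106 CPM and the Kupffer cell markers to 345 to 604 and 39.5 to 57.6 CPM. *Maf* is expressed by ECs and by macrophages, and the part of each in the fall in liver was not tested.

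*Gata4* had 25.3, 22.9 and 20.7 CPM in control livers and 16.0, 16.8 and 20.98 CPM in HSC-KO livers. The groups overlapped and the change did not pass the test (log2 fold change -0.36, SE 0.15, adjusted p = 0.36). The difference between its change in ECs and in whole liver was -4.53 on the log2 scale (SE 0.81, adjusted p = 0.00557) and -5.96 without HSC-KO EC replicate 1. It was the 1 difference called among the 10 genes, where 7.52% of 19011 genes were called. *Tal1* had 2.00, 1.68 and 2.31 CPM in control livers and 1.03, 1.27 and 0.724 CPM in HSC-KO livers, without overlap (log2 fold change -0.98, SE 0.33, adjusted p = 0.23). *Fli1* had 2.78, 3.36 and 3.54 CPM against 3.64, 6.62 and 4.42 CPM, also without overlap (0.60, SE 0.27, adjusted p = 0.41). *Erg* had 7.29, 8.74 and 7.75 CPM against 8.94, 9.63 and 9.63 CPM (0.25, SE 0.15, adjusted p = 0.58). Together with *Maf*, these made 4 of 10 genes without overlap in liver, against 19.7% of all genes. The other 5 genes had log2 fold changes of -0.11 (*Epas1*) to 0.55 (*Gata2*). *Gata6*, which was higher in liver than in ECs, had 5.76 to 8.26 CPM in control and 6.17 to 10.7 CPM in HSC-KO livers.

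**Figure D4:**
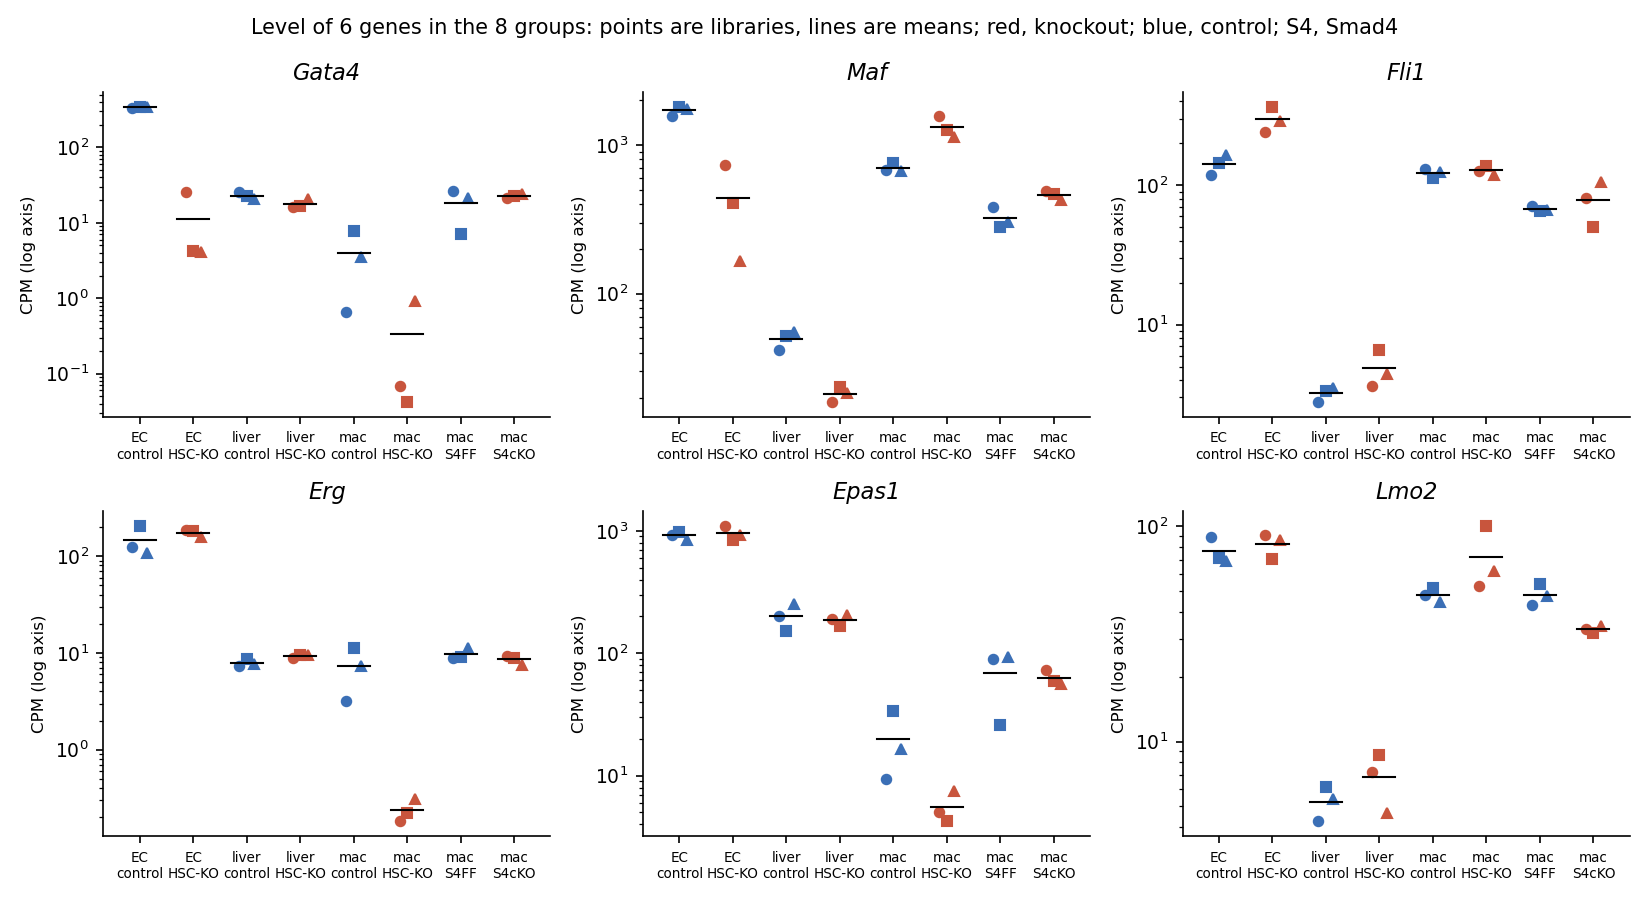
CPM of 6 genes on log axes in the 8 groups, with each point a library, lines at the means, controls in blue and knockouts in red (mac, liver macrophages; S4FF and S4cKO, the Smad4 groups). *Maf* is lower in HSC-KO ECs and livers and higher in HSC-KO macrophages than in their controls, and *Erg* in HSC-KO macrophages is below all other groups.

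In macrophages of HSC-KO mice, *Maf* rose while *Erg* and *Epas1* fell, where 19.2% of 16337 genes were called (9.29% higher and 9.87% lower). *Maf*, which in macrophages acts in terminal differentiation, had 675, 752 and 664 CPM in control macrophages and 1557, 1257 and 1128 CPM in HSC-KO macrophages, without overlap. The log2 fold change was 0.91 (SE 0.16, adjusted p = 0.00631), and it was called in 12 of 13 alternatives (0.78 to 1.01), the exception being the fit of all 24 libraries (adjusted p = 0.0598). The difference between its change in ECs and in macrophages was -2.88 on the log2 scale (SE 0.57, adjusted p = 0.00578) and -3.50 without HSC-KO EC replicate 1, and it was called in all 19 alternatives. In the same libraries the sum of the Kupffer cell and macrophage markers was 36880 to 39870 CPM in control and 7223 to 7877 CPM in HSC-KO macrophages.

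*Erg* had 3.16, 11.4 and 7.25 CPM in control macrophages and 0.182, 0.22 and 0.307 CPM in HSC-KO macrophages, from 16 to 28 counts. Every control library was above every HSC-KO library. The log2 fold change was -4.93 (SE 0.54, adjusted p = 9.11e-04), it was called in all 13 alternatives (-5.29 to -4.45), and its difference from the change in ECs was 5.19 (SE 0.60, adjusted p = 2.43e-04). *Epas1* had 9.34, 34.1 and 16.4 CPM in control and 5.01, 4.24 and 7.5 CPM in HSC-KO macrophages, without overlap. Its log2 fold change was -1.84 (SE 0.46, adjusted p = 0.0301), but it was called in 7 of 13 alternatives (adjusted p 9.66e-05 to 0.11). It was -1.20 without control replicate 2, and the call was also lost without control replicate 3, HSC-KO replicate 1 or HSC-KO replicate 2. With *Xist* as a covariate (-1.81, adjusted p = 0.0766) and with the replicate block (-1.66, adjusted p = 0.0676) *Epas1* was not called either. Its difference from the change in ECs was 1.89 (SE 0.54, adjusted p = 0.0378), called in 8 of 19 alternatives. That difference was 1.25 without control macrophage replicate 2, and leaving out the same macrophage libraries or any of the 6 EC libraries ended its call.

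The 12 pan-endothelial markers summed to 348, 574 and 418 CPM in control macrophages and to 77.3, 58.8 and 130.9 CPM in HSC-KO macrophages, without overlap, and 2 of the 12 were called, both lower. *Cdh5* and *Eng* are also expressed by Kupffer cells, so a list without them was added after seeing the data. Its 10 genes summed to 50.9, 257 and 181 CPM in control and 14.4, 12.6 and 61.1 CPM in HSC-KO macrophages, with overlap, against 14590 to 14980 CPM in control ECs. None of the 10 was at 0 in either group, and 1 of them was called, lower. If control macrophage libraries held endothelial RNA in the proportion of these 10-gene sums, *Erg* would be at 0.502 to 2.54 CPM and *Gata4* at 1.18 to 5.94 CPM, beside measured ranges of 3.16 to 11.4 CPM for *Erg* and 0.65 to 7.82 CPM for *Gata4*. For *Epas1* the same share gives 3.17 to 16.0 CPM beside 9.34 to 34.1 CPM measured. In HSC-KO macrophages, taken against HSC-KO ECs, the share gives 0.176 to 0.856 CPM for *Erg* beside 0.182 to 0.307 CPM measured, and 0.961 to 4.67 CPM for *Epas1* beside 4.24 to 7.5 CPM. *Maf* in control macrophages, at 664 CPM or more, was above the 5.90 to 29.8 CPM at that share, as were *Fli1* (113 to 130.4 against 0.49 to 2.48 CPM) and *Lmo2* (44.5 to 51.9 against 0.264 to 1.34 CPM). The part of endothelial RNA in the falls of *Erg* and *Epas1* was not tested.

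**Figure D5:**
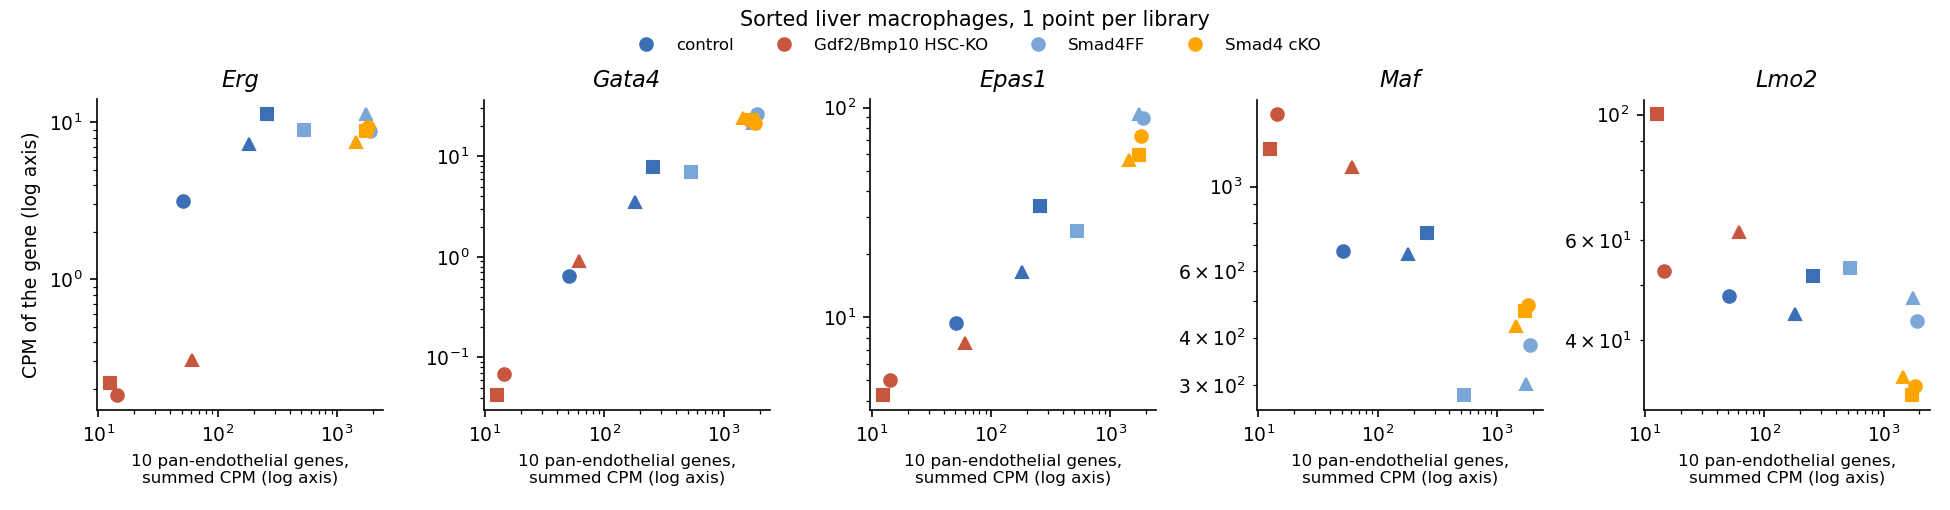
CPM of 5 genes against the summed CPM of 10 pan-endothelial genes (without *Cdh5* and *Eng*) in the 12 macrophage libraries, both on log axes, with colour for the group and shape for the replicate. *Gata4* and *Epas1* are generally higher where the marker sum is higher, and so is *Erg* among the control libraries but not among the Smad4FF libraries. *Erg* lies at 0.182 to 0.307 CPM in the HSC-KO libraries, highest where the sum is highest. *Maf* and *Lmo2* are not highest where the markers are.

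*Gata4* in macrophages had 0.65, 7.82 and 3.55 CPM in controls and 0.0684, 0.0419 and 0.909 CPM in HSC-KO mice, with the groups overlapping through HSC-KO replicate 3. The log2 fold change of -3.55 (-6.15 to -2.62 when a library was left out) did not pass the test (SE 1.29, adjusted p = 0.096). It did without HSC-KO replicate 3 (-6.15, adjusted p = 0.0207, range over the alternatives 0.00997 to 0.27). That library and the EC library with the highest *Gata4* of the HSC-KO group, replicate 1, came by the labels from the same mouse. *Meis2* had 0.52, 6.01 and 5.79 CPM in control and 0.137, 0.0629 and 1.17 CPM in HSC-KO macrophages (log2 fold change -3.16, SE 1.22, adjusted p = 0.12). The value was -5.34 to -2.65 when a library was left out. *Meis2* passed in 3 of 13 alternatives: without HSC-KO replicate 3 (-5.34, adjusted p = 0.0321), in DESeq2 (-3.17, adjusted p = 0.00603) and with all 24 libraries (-3.21, adjusted p = 0.00823). *Gata2* had 0.21 to 1.38 CPM in control macrophages and 0 to 0.296 CPM in HSC-KO macrophages, from 0, 2 and 27 counts (adjusted p = 0.26).

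*Fli1* in macrophages had 130.4, 113 and 124 CPM in controls and 126, 139 and 119 CPM in HSC-KO mice (log2 fold change 0.06, SE 0.11, adjusted p = 0.76). Its change in ECs was larger by 1.00 on the log2 scale (SE 0.24, adjusted p = 0.0162), called in all 19 alternatives. The 4 genes *Maf*, *Epas1*, *Erg* and *Fli1* were those called for a difference between ECs and macrophages, where 15.3% of 18343 genes were called. *Lmo2* had 47.9, 51.9 and 44.5 CPM in control and 52.9, 100.5 and 62.0 CPM in HSC-KO macrophages, without overlap (log2 fold change 0.58, SE 0.23, adjusted p = 0.13). *Tal1* had 0.0473, 1.12 and 0.926 CPM against 1.78, 3.70 and 0.942 CPM (1.62, SE 0.96, adjusted p = 0.29), and the log2 fold change was 0.97 without HSC-KO replicate 2 and up to 2.16 when another library was left out. Erythroid and megakaryocyte markers summed to 63.1 to 89.3 CPM in control and 556 to 973 CPM in HSC-KO macrophages, with 1 of the 4 tested called higher and 1 lower. *Gata6* had 0 to 33 counts in the macrophage libraries of both groups. In all, 4 of 10 genes did not overlap between the groups, against 40.3% of all genes.

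In macrophages of Smad4 cKO mice, 1 of the 10 genes was called, where 7.74% of 17517 genes were called and 4.03% were called lower. *Lmo2* had 43.2, 53.7 and 47.4 CPM in Smad4FF and 33.2, 31.9 and 34.4 CPM in Smad4 cKO macrophages, without overlap. The log2 fold change was -0.54 (SE 0.12, adjusted p = 0.0413), and the call was kept in 2 of 12 alternatives (adjusted p 0.00564 to 0.21), though the direction was the same in all 12. *Maf* had 382, 282 and 302 CPM in Smad4FF and 488, 469 and 429.8 CPM in Smad4 cKO macrophages, also without overlap. Its log2 fold change of 0.52 did not pass the test (SE 0.15, adjusted p = 0.077), and it passed in DESeq2 (adjusted p = 0.0259, range over the alternatives 0.0259 to 0.48). With library size alone in edgeR, *Maf* passed (0.68, adjusted p = 0.0327) and *Lmo2* did not (-0.38, adjusted p = 0.10). The *Maf* and *Lmo2* groups made 2 of 10 without overlap, against 29.4% of all genes. In the same libraries the Kupffer cell and macrophage markers summed to 30490 to 37460 CPM in Smad4FF and 6381 to 7555 CPM in Smad4 cKO macrophages. Erythroid and megakaryocyte markers summed to 64.7 to 101 CPM and 308 to 438 CPM, with 1 of the 4 tested called, higher.

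*Erg* in these macrophages had 8.78, 8.99 and 11.3 CPM in Smad4FF and 9.35, 8.84 and 7.52 CPM in Smad4 cKO mice (log2 fold change -0.18, SE 0.18, adjusted p = 0.64). *Gata4* had 26.5, 7.05 and 21.6 CPM against 21.3, 22.8 and 24.1 CPM (0.31, SE 0.42, adjusted p = 0.74). The other 6 genes had log2 fold changes of -0.14 (*Epas1*) to 0.22 (*Fli1*). Here the sum of 10 pan-endothelial genes was 1898, 528 and 1757 CPM in Smad4FF and 1819, 1735 and 1448 CPM in Smad4 cKO macrophages, above that in the macrophages of the other table. These sums are 3.59% to 12.9% of that in control ECs. At that share *Erg* would be at 5.21 to 18.7 CPM in Smad4FF and 14.3 to 17.9 CPM in Smad4 cKO macrophages, above the measured values in 5 of the 6 libraries, and *Gata4* at 12.2 to 43.9 and 33.5 to 42.0 CPM, above those measured in all 6. The change of *Erg* in HSC-KO macrophages differed from that in Smad4 cKO macrophages by -4.71 on the log2 scale (SE 0.56, adjusted p = 0.00117), and that of *Lmo2* by 1.16 (SE 0.28, adjusted p = 0.0491), where 3.00% of 18280 genes were called. This comparison was added after seeing the data, and the part of the endothelial marker sums in it was not tested.

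Across the 24 libraries, the genes whose log2 CPM was most like that of each factor were found among 13524 genes past the filter in all 4 tables. The correlations describe the compartments more than single conditions, since the libraries fall into ECs, macrophages and livers. *Gata4* was most like *Clca3a1* (Pearson r = 0.933), *Ntn4* (0.931) and *Bmp6* (0.928), *Maf* most like *Dab2* (0.966), *Plxna4* (0.964) and *Hs1bp3* (0.964), and *Erg* most like *She* (0.979), *Nbea* (0.972) and *Rin1* (0.970). *Fli1* was most like *Maml2* (0.986), *Nudt3* (0.985) and *Dync1li1* (0.985). *Meis2* was most like the endothelial gene *Mmrn2* (0.993), *Epas1* like *Ndrg1* (0.989), *Gata2* like *Arhgef15* (0.983), *Lmo2* like *Ifi203* (0.984), *Tal1* like *Chst7* (0.962) and *Gata6* like *Ube4a* (0.963).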

How the data were processed

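Raw counts of 4 tables (ECs, whole liver and 2 of macrophages) were analysed. Per the labels and methods, the authors mapped reads with HISAT2 to mm10 (GRCm38) and deposited whole-number counts per gene from FeatureCounts, without normalization. Versions, strand use and multi-mapped reads are not given in the sources used here. The labels and the methods name different library kits. The genes and lists were chosen with earlier results of these data known. In R 4.3.3, each comparison of 3 against 3 mice was fitted over all genes past filterByExpr of edgeR 4.0.16 (minimum count 10, total 15) with TMM factors and edgeR's quasi-likelihood test, and p values were Benjamini-Hochberg adjusted. Called means an adjusted p below 0.05, and a DEG also moved by more than 1 on the log2 scale. The standard error is the fold change divided by the square root of F. Differences between compartments were tested as interactions over 12 libraries. Exon lengths and coordinates are from GENCODE vM21, in which 46443 of 48574 symbols (95.6%) matched. Alternatives were DESeq2 1.42.0, its size factors in edgeR, scaling by library size only, a looser filter (at least 1 count), all 24 libraries in 1 fit, leaving out each library, a replicate block, and a covariate for *Xist* or limma 3.58.1 with the mouse as a random effect where they applied. Named genes were the 10 factors, the DEGs of the related list in ECs without overlap, the 3 genes most like each factor and the deleted genes. Some items of these lists are not reported here. Others were named after their values were seen. Fits were tested on simulated counts with the same dispersion for every gene, so genes with a wider spread are not covered. In ECs, 10.6% of 1.5-fold, 69.4% of 2-fold and 100% of 4-fold changes were called. For the difference between ECs and macrophages, 27.3% of 2-fold and 79.2% of 4-fold changes were called. Counting limits, such as the floor of 3 counts, cover counting error only. A permutation of 3 against 3 mice cannot reach p = 0.05.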

Additional observations from a re-analysis of the deposited data

Results flagged for a closer look

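The change of 4 genes in HSC-KO mice differed between ECs and macrophages by a test of the difference itself. The difference, given as the change in ECs minus that in macrophages on the log2 scale, was -2.88 for *Maf*, which fell in ECs and rose in macrophages. It was 5.19 for *Erg*, 1.89 for *Epas1* and 1.00 for *Fli1*. Between ECs and whole liver the change of *Gata4* differed by -4.53. Between HSC-KO and Smad4 cKO macrophages the change of *Erg* differed by -4.71 and that of *Lmo2* by 1.16, in a test added after seeing the data. With 3 libraries a group, single libraries were not screened as outliers.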

How the results depend on the processing

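Of 1118 single values under the alternatives, 1067 kept their side of the threshold, 38 lost the call and 13 gained it, and none that was called reversed. In ECs the number of genes called was 3, and 2 to 3 when a library was left out. In macrophages of HSC-KO mice it was 3, and 2 to 5 when a library was left out, with *Gata4* and *Meis2* added without HSC-KO replicate 3. All 24 libraries in 1 fit gave 5 there (*Maf* lost, *Gata4*, *Gata2* and *Meis2* gained). In macrophages of Smad4 cKO mice DESeq2 called 2 genes instead of 1, whereas edgeR called 0 with all genes of at least 1 count, 0 with the replicate block, 0 with all 24 libraries and 0 to 0 when any library was left out, with 1 to 3 genes at an unadjusted p below 0.05 in these settings. The difference between ECs and macrophages was called for 3 to 6 genes when a library was left out. For the difference between ECs and whole liver, DESeq2 called 0 genes because it gave no adjusted p for *Gata4* (log2 difference -4.57). For each pair of a control and a knockout library, the deviations from the group means were correlated. In ECs same-numbered pairs were at 0.103, 0.117 and 0.0334 and other pairs at -0.13 to 0.0234. In liver they were at 0.0147, 0.0489 and 0.0133 against -0.0457 to 0.0246. Both macrophage tables had negative values among the same-numbered pairs, and in no table were all 3 above 0.1. Whether replicate numbers pair the samples cannot be told from these values. With the replicate block *Epas1* in macrophages (-1.66, adjusted p = 0.0676), its difference from ECs (1.70), *Lmo2* in Smad4 cKO macrophages (-0.53) and *Lmo2* between control ECs and macrophages (0.48) lost their call, and the block changed no other call. Library size alone moved the log2 fold changes of the 10 genes by a median of -0.11 (whole liver) to 0.36 (ECs minus whole liver) per comparison. Of 40 mean levels in ECs under other scalings, 16 moved by more than 1 SD. What caused these changes was not tested.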

Other observations

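The 55 related factors were also counted in the other comparisons. Of 44 tested in macrophages of HSC-KO mice, 12 were called, 11 higher and 1 lower, where 19.2% of all genes were called. In macrophages of Smad4 cKO mice, 6 of 46 were called, 4 higher and 2 lower, where 7.74% were. In whole liver 0 of 45 were called in edgeR's quasi-likelihood test, with 6 at an unadjusted p below 0.05, where 2.83% of all genes were called. Between control ECs and control macrophages, 22 of 44 related factors were higher in ECs, where 24.5% of all genes were, and 5 were lower, where 24.7% were.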
